A study of Homo sapiens with 6 samples.

Results

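A set of 39 genes that are used to tell luminal, basal and mesenchymal cell states apart in the bladder was followed in EJ cells, an established human bladder cancer line, after knockdown of STIL. The genes were chosen by name, with earlier results of these data known, 23 as luminal, 7 as basal and 9 as mesenchymal markers. A gene was kept when its symbol had a row in the log2 CPM tables (reads scaled to library size, on the log2 scale). That held for 32 of the 39, out of 15953 genes in all: 19 luminal, 5 basal and 8 mesenchymal genes. GRHL2, KRT6A, KRT13, KRT14, KRT19, UPK3A and TWIST1 had no row in the tables used here, and nothing is said of their level. The cells of both groups were infected with lentivirus and kept as stable lines, shNC with a negative control hairpin and shSTIL with a hairpin against STIL, and each group gave 3 RNA-seq libraries. No further treatment of the sequenced cells is given, and the sources used here state neither the hairpin sequence nor whether each line was a pool or 1 clone. Nothing states that the 3 libraries came from separate cultures, so p-values measure the spread between these libraries, which may be technical.

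The urothelium is a layered lining. Its basal cells rest on the basement membrane and carry KRT5, KRT14 and the transcription factor TP63, whereas its luminal umbrella cells make uroplakins and KRT20 under the control of PPARG, GATA3, FOXA1, ELF3 and the grainyhead-like factors. Bladder tumours keep parts of these programs, and the balance of luminal and basal genes is used to class them. In the epithelial-mesenchymal transition, factors of the ZEB and SNAI families repress epithelial genes such as CDH1 by binding E-boxes, and the cells gain VIM, CDH2 and FN1.

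Estimated reads over the 15953 genes summed to 16214800 to 16431200 per library in shNC and 16734500 to 16901600 in shSTIL. STIL log2 CPM was 5.98, 6.10 and 6.01 in shNC and 4.05, 4.06 and 4.01 in shSTIL, so 25.2% of the control level was left. Differential expression genes (DEGs) were called with limma over all genes at a Benjamini-Hochberg adjusted p under 0.01, on log2 CPM where an added prior count makes changes of low genes look smaller. Of all 15953 genes, 23.5% were called higher and 23.6% lower in shSTIL.

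EJ cells carried a mixed marker profile before any comparison. Divided by transcript length, the most abundant of the 32 genes in shNC was VIM, the mesenchymal intermediate filament protein, at 679 ± 5.81 CPM per kb (SD, n = 3). It was followed by the simple epithelial keratin KRT18 at 371 ± 10.5, by CD44, the hyaluronan receptor of basal cells, at 178 ± 3.07, by KRT8 at 153 ± 2.34 and by KRT7 at 50.9 ± 3.78 CPM per kb. These 5 genes stood in the same order in shSTIL, and neighbours in this order lay further apart than the SD of their libraries in both groups. The SD does not cover the choice of transcript length, here the longest coding transcript, on which the order depends. Values per kb were scaled to library totals only, so their ratios between groups differ slightly from the fold changes on log2 CPM. Without division by length, CD44 lay above KRT18 in shNC, at a mean log2 CPM of 10.01 against 9.32. Some marker genes of the urothelial layers were near the floor and others were not. In every library, KRT20 and GRHL3 had 0 or 1 read, KRT5 had 0 reads in 5 libraries and 1 in the other, UPK2 had at most 5 reads, GATA3 at most 9 and CDH1, the epithelial cadherin, at most 3. A count of 0 allows up to 3 reads, which is 0.177 to 0.185 CPM in these libraries, for counting error only. The luminal regulators PPARG, FOXA1 and ELF3 were above this, at 302 to 405, 104 to 178 and 60 to 208 reads per library. UPK1A had 19 to 33 reads, UPK1B 5 to 20 and UPK3B 12 to 21. The luminal markers were thus mixed. The cells are not called differentiated urothelium, and urothelial is used here for the gene set only. The plot of all 32 genes by library sets the 17 genes whose mean log2 CPM reached 1 apart from the 15 below it.

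**Figure D1:**
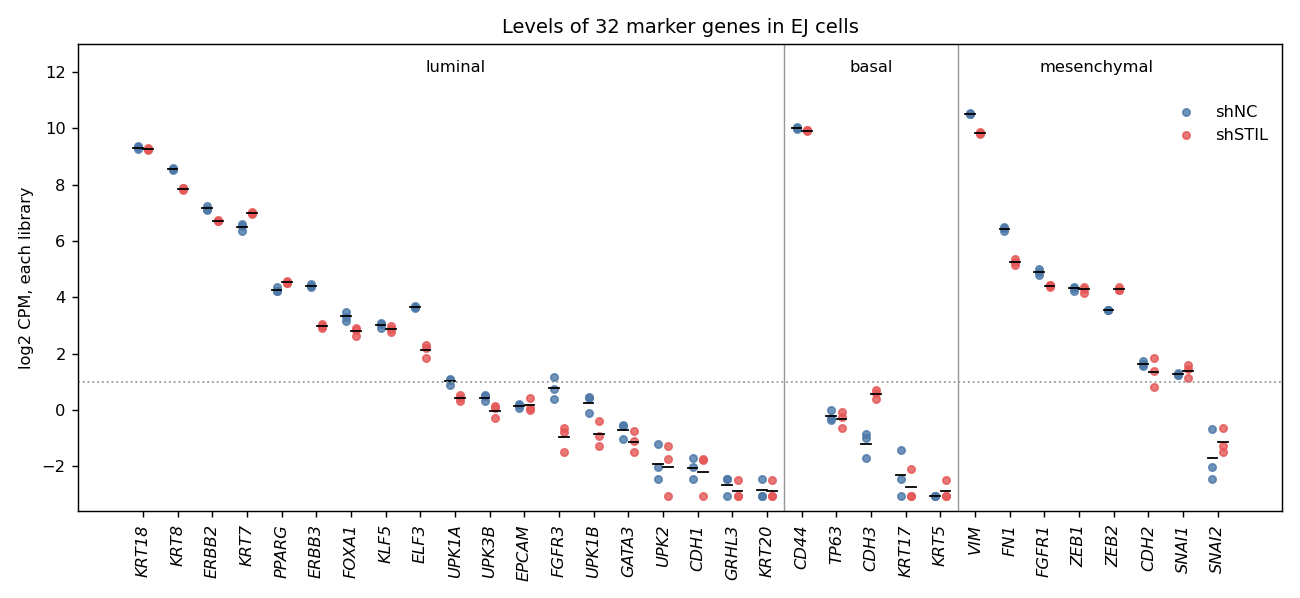
Log2 CPM of the 32 marker genes in each of the 3 shNC (blue) and 3 shSTIL (red) libraries, ordered within class by mean level, with black bars for group means and a dotted line at a log2 CPM of 1. VIM, CD44, KRT18 and KRT8 lie at the top in both groups, while 10 of the 19 luminal genes and 4 of the 5 basal genes have a mean over all libraries under the line.

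In shSTIL, 4 of the 32 genes were called higher (12.5%, against 23.5% of all genes) and 10 lower (31.2%, against 23.6% of all genes), and 18 were not called. KRT7, PPARG, CDH3 and ZEB2 rose. ELF3, FOXA1, KRT8, ERBB2, ERBB3, FGFR3, UPK1B, VIM, FN1 and FGFR1 fell. Both the luminal and the mesenchymal class therefore held genes in each direction. By class, 2 luminal genes rose and 7 fell of 19, 1 basal gene rose and none fell of 5, and 1 mesenchymal gene rose and 3 fell of 8. The median log2 fold change was -0.41 over the luminal, -0.09 over the basal and -0.17 over the mesenchymal genes, and -0.18 over all 32, beside 0.0052 over all genes tested. For each of the 14 called genes the groups did not overlap, with p = 0.1 in an exact two-sided permutation test, the lowest value that 3 against 3 libraries can reach. The groups of UPK1A, UPK3B and CD44, which were not called, did not overlap either, at the same p. Calls and overlap rest on the same libraries, and the share of all genes without overlap was not counted. Non-overlap therefore adds no support to the calls. In RNA from bulk cultures, fewer cells of a type and less RNA per cell cannot be told apart.

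**Figure D2:**
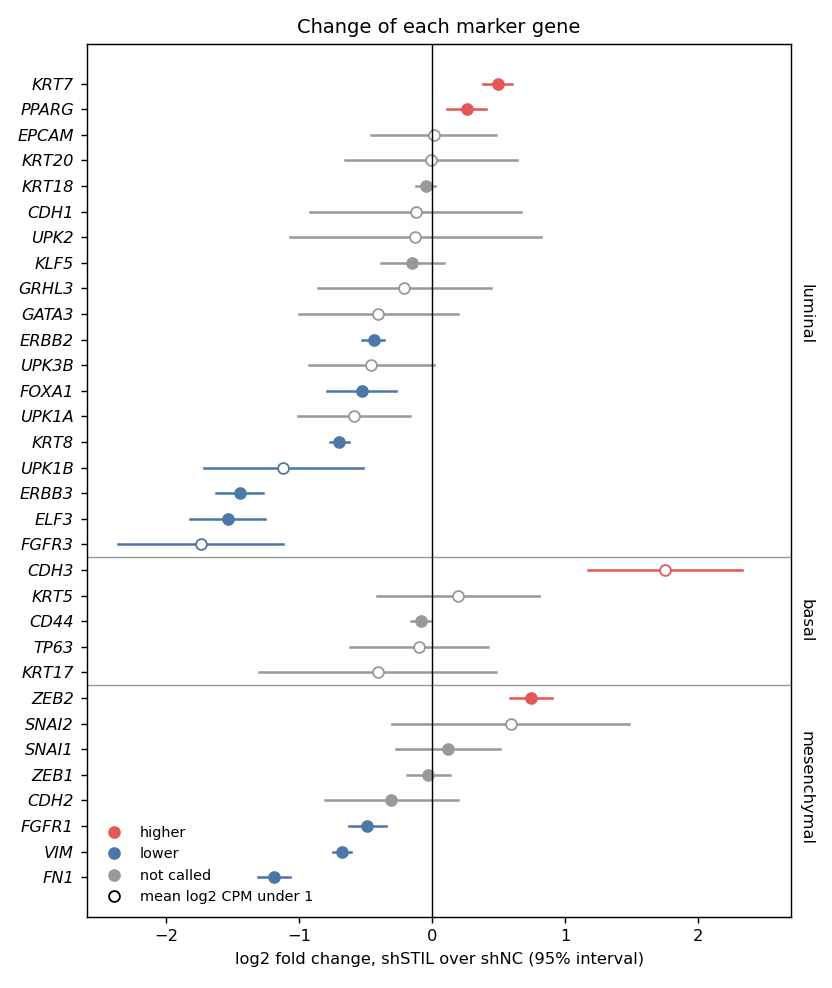
Log2 fold change of each marker gene (shSTIL over shNC) with its 95% interval from limma, by class, with red for higher, blue for lower, grey for not called and open circles for a mean log2 CPM under 1. FGFR3, ELF3 and ERBB3 lie furthest to the left among luminal genes, CDH3 lies furthest to the right, and the mesenchymal genes run from ZEB2 at 0.74 to FN1 at -1.19.

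Among the regulators of luminal identity, ELF3 and FOXA1 were called lower and PPARG higher. Of these calls only that of ELF3 held in every alternative fit, as given below. ELF3, an ETS-family factor of differentiated epithelia, and ERBB3, described further down, were the luminal genes with the steepest falls among those whose mean log2 CPM reached 1. The promoters of ELF3 and FOXA1, which hold the E-box CACCTG that ZEB and SNAI factors bind, and of ZEB2, which does not, are shown as examples of a window with and without it. They were chosen after the values were seen and say nothing of how the E-box goes with a change, since it also lies in promoters of PPARG, which rose, and of ZEB1, KRT5, KRT20 and GRHL3, which were not called. They are RefSeq sequences of GRCh38.p14, from 250 bases before to 50 after a transcription start, written 5′ to 3′ on the gene's strand, with an E-box (CACCTG or its reverse complement CAGGTG) in capitals. The ELF3 window is chr1:202010337-202010636 on the plus strand with the E-box 120 bases before the start, the FOXA1 window is chr14:37595200-37595499 on the minus strand with the E-box 122 bases before the start, and the ZEB2 window is chr2:144520070-144520369 on the minus strand.
ELF3: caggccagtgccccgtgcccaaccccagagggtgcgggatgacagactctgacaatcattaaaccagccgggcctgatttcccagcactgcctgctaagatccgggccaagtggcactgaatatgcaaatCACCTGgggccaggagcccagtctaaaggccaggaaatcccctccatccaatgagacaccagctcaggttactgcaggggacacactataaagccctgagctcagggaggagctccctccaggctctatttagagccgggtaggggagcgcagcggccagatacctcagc
FOXA1: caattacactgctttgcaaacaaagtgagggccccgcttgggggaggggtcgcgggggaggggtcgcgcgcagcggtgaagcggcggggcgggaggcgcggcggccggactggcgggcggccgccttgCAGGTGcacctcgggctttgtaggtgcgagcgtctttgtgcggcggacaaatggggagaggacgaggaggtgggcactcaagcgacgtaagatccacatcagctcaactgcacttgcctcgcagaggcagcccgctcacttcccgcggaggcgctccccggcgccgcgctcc
ZEB2: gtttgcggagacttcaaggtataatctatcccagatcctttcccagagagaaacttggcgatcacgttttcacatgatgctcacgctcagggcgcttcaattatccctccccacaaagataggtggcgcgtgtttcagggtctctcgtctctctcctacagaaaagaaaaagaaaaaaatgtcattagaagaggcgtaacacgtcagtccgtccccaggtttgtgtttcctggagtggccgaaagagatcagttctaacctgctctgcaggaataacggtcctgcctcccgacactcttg

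Of the 32 genes, 21 matched the RefSeq promoter table, with 40 promoters. CACCTG, on either strand, lay in 11 of these 40 (27.5%), which belong to ELF3, FOXA1, GRHL3, KRT20, KRT5, PPARG, UPK1B and ZEB1, and in 20.6% of all 35116 promoters. The GATA motif AGATAA lay in 2 of the 40 (5.0%), of GRHL3 and PPARG, against 10.3% of all promoters, and the grainyhead-like motif AACCNGTT in 1 (2.5%), of PPARG, against 1.73%. All 3 motifs were searched on both strands, and sites of different motifs overlapped in 0 of the 40 promoters. These are matches of letters, with no measurement of binding. UPK1B, the last of the 8 genes with the E-box, fell.

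ELF3 (GRCh38 chromosome 1, 202007945 to 202017188, plus strand) had a log2 CPM of 3.71, 3.62 and 3.67 in shNC and 1.86, 2.31 and 2.22 in shSTIL, on 199 to 208 and 60 to 83 reads. All shSTIL libraries were well below all shNC libraries, and 34.4% of the control level was left (log2 fold change -1.54, standard error 0.13, limma adjusted p = 2.7e-07). FOXA1, a pioneer factor that opens chromatin at luminal genes (chromosome 14, 37589984 to 37596059, minus strand), had a log2 CPM of 3.49, 3.32 and 3.17 in shNC and 2.83, 2.91 and 2.64 in shSTIL. The groups did not overlap, and FOXA1 fell by 0.53 on the log2 scale (standard error 0.12, limma adjusted p = 0.0017). This call was not kept with any of the 6 libraries left out, where the adjusted p was 0.011 to 0.033 and the log2 fold change -0.61 to -0.45, nor without the mean-variance trend (adjusted p = 0.011). Over all alternatives the adjusted p ran from 6.8e-05 to 0.075.

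PPARG, the nuclear receptor that drives urothelial differentiation (chromosome 3, 12287368 to 12434356, plus strand), stood at 4.24, 4.22 and 4.37 log2 CPM in shNC and at 4.50, 4.52 and 4.58 in shSTIL. The rise was small, to 119% of the control level (log2 fold change 0.26, standard error 0.0658, limma adjusted p = 0.0046). It held with shNC replicate 3 left out (adjusted p = 0.0059) and not with any of the other 5 libraries left out, where the adjusted p was 0.023 to 0.034. DESeq2 on reads (adjusted p = 0.016) and the fit without the mean-variance trend (0.013) did not call it either, and over all alternatives the adjusted p ran from 0.0018 to 0.99. PPARG was thus, with KRT7, 1 of 2 luminal genes that rose, while the luminal factors ELF3 and FOXA1 fell.

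KLF5, a Krüppel-like factor of proliferating epithelia, stood at 2.93, 3.09 and 3.05 log2 CPM in shNC and 2.77, 2.87 and 2.97 in shSTIL, and the groups overlapped (log2 fold change -0.15, 95% interval -0.39 to 0.09, limma adjusted p = 0.27). GATA3 had 9, 6 and 9 reads in shNC and 4, 6 and 8 in shSTIL, and the groups overlapped (limma adjusted p = 0.24, 95% interval of the log2 fold change -1.0 to 0.19). GRHL3 had 1 read in each of 3 libraries and none in the others. GATA3, which acts with PPARG and FOXA1 in the urothelium, was thus near the floor in both groups.

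The keratins are obligate partners: type II keratins such as KRT7 and KRT8 pair with type I keratins such as KRT18 to build filaments. KRT8 (chromosome 12, 52897187 to 52949954, minus strand) fell and KRT7 (chromosome 12, 52232520 to 52252186, plus strand) rose, while KRT18 (chromosome 12, 52948871 to 52952901, plus strand) was not called. KRT8 log2 CPM was 8.59, 8.54 and 8.56 in shNC and 7.87, 7.90 and 7.81 in shSTIL, on 5990 to 6198 and 3806 to 4114 reads. KRT7 log2 CPM was 6.59, 6.37 and 6.55 in shNC and 6.96, 7.02 and 7.01 in shSTIL. The 2 type II keratins thus moved apart, each with no overlap between groups: KRT8 to 61.5% of its control level (log2 fold change -0.70, standard error 0.0331, limma adjusted p = 1.1e-09) and KRT7 to 141% (log2 fold change 0.49, standard error 0.0509, limma adjusted p = 2.0e-06). KRT18 stood at 9.33, 9.27 and 9.36 log2 CPM in shNC and 9.25, 9.30 and 9.27 in shSTIL. Its groups overlapped, and its interval of -0.12 to 0.02 on the log2 scale lies far from the changes of its 2 partners.

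Within each library, the log2 difference of KRT8 minus KRT18 was -0.74, -0.73 and -0.81 in shNC and -1.37, -1.40 and -1.46 in shSTIL. The difference of KRT7 minus KRT8 went from -2.06 to -0.87 on average, a shift of 1.2, with an SD of 0.095 in shNC and 0.063 in shSTIL. The pair was chosen after its values were seen, so the shift restates the 2 fold changes and is no separate test. Per transcript length, KRT8 went from 153 ± 2.34 to 96.9 ± 3.37 CPM per kb and KRT7 from 50.9 ± 3.78 to 73.9 ± 1.96 (SD, n = 3), so KRT8 was still the more abundant of the pair. Limits apply to these loci. The annotated extents of KRT8 and KRT18 overlap by 1084 bases on opposite strands and the strand used in counting is not stated, and KRT86, a hair keratin gene whose annotated extent overlaps KRT7 on the same strand, rose from 145, 149 and 145 to 213, 215 and 209 reads, so reads shared between these genes could not be separated.

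**Figure D3:**
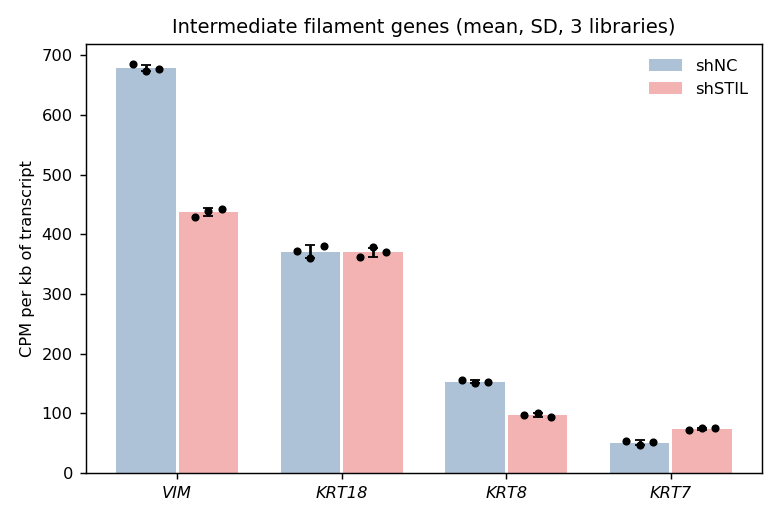
Level of VIM, KRT18, KRT8 and KRT7 in CPM per kb of transcript (bars, mean; error bars, SD; points, the 3 libraries of each group). VIM and KRT8 are lower and KRT7 is higher in shSTIL with no overlap, while the KRT18 bars, at 371 and 370, stand at the same height. Bars are scaled to library totals only, and the log2 fold change of KRT18 on log2 CPM was -0.05.

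The uroplakins form the rigid plaques of the umbrella cell surface, and all 4 with a row had a mean log2 CPM under 1. UPK1B, a tetraspanin of these plaques (chromosome 3, 119173517 to 119205153, plus strand), had 20, 20 and 13 reads in shNC and 5, 7 and 11 in shSTIL, 53 against 23 in all, and was called lower (log2 fold change -1.12, limma adjusted p = 0.0035). The groups did not overlap, but the call was lost in 10 of the 15 alternatives that gave a value: with any 1 of the 6 libraries left out (adjusted p 0.011 to 0.058), with the replicate number as a block (0.013), without the mean-variance trend (0.019), in the test against a 1.2-fold change (0.02) and in DESeq2 (0.027). The lowest adjusted p over the alternatives was 0.0028. UPK1A, its paralog, had 33, 28 and 31 reads against 21, 23 and 19 and did not pass (limma adjusted p = 0.019), although its groups did not overlap either. UPK3B had 21, 21 and 18 reads against 12, 17 and 16 (limma adjusted p = 0.09), and UPK2 had 5, 2 and 1 against 5, 0 and 3. For the adhesion genes, CDH1 had 2, 3 and 1 reads against 3, 0 and 3, and EPCAM, an epithelial cell adhesion molecule, had 15, 17 and 16 against 21, 15 and 16. Neither was called, and at these counts only large differences could have been detected.

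**Figure D4:**
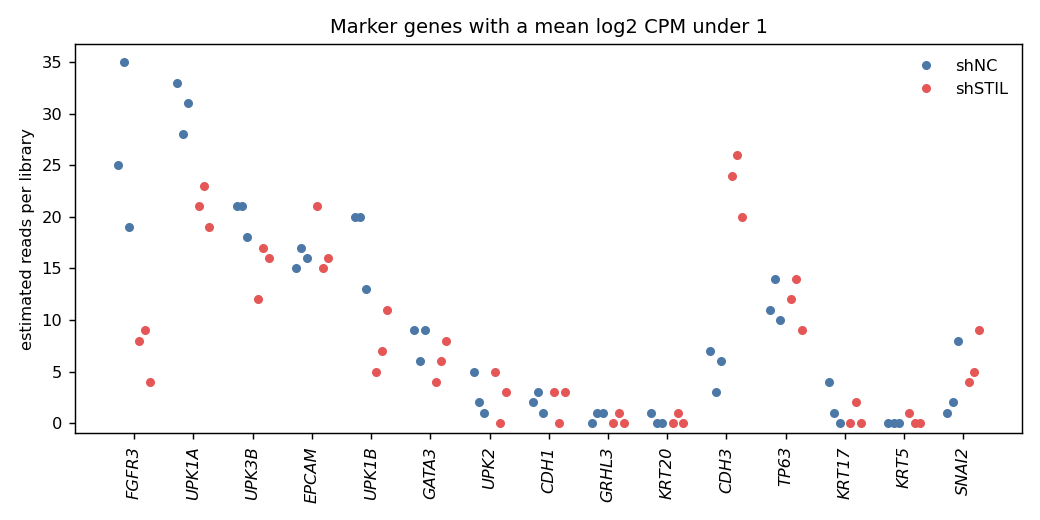
Estimated reads per library of the 15 marker genes with a mean log2 CPM under 1 in shNC (blue) and shSTIL (red). FGFR3 and UPK1B are lower and CDH3 is higher in all shSTIL libraries, while CDH1, KRT20, GRHL3 and KRT5 stay at 3 reads or fewer in every library.

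All 3 receptor tyrosine kinases of the luminal class were called lower, beside 23.6% of all genes. One of them, FGFR3, had only 4 to 35 reads per library and lost its call in 5 of the 6 fits that left out a library. ERBB3, the neuregulin receptor that signals as a dimer with ERBB2 (chromosome 12, 56076799 to 56103505, plus strand), stood at 4.41, 4.38 and 4.48 log2 CPM in shNC and 3.05, 2.90 and 2.98 in shSTIL, which left 36.7% of the control level (log2 fold change -1.45, standard error 0.0824, limma adjusted p = 6.6e-09). ERBB2 (chromosome 17, 39687914 to 39730426, plus strand) stood at 7.25, 7.12 and 7.15 in shNC and 6.73, 6.70 and 6.76 in shSTIL and fell less, to 73.6% (log2 fold change -0.44, standard error 0.0392, limma adjusted p = 4.6e-07). Neither gene had overlapping groups. The log2 difference of ERBB3 minus ERBB2 within a library went from -2.84, -2.74 and -2.67 in shNC to -3.67, -3.81 and -3.78 in shSTIL, a mean shift of -1.01. This pair, too, was chosen with its values known, and the shift restates the 2 fold changes.

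FGFR3, a fibroblast growth factor receptor that is often mutated in luminal papillary tumours (chromosome 4, 1793293 to 1808872, plus strand), had 25, 35 and 19 reads in shNC and 8, 9 and 4 in shSTIL, 79 against 21 in all, with no overlap. It was called lower (log2 fold change -1.74, limma adjusted p = 1.5e-04), and edgeR on reads gave -1.98 (adjusted p = 9.6e-06). Without shNC replicate 3 the call was kept (adjusted p = 0.0071), and with any of the other 5 libraries left out it was not (0.011 to 0.017).

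Among the basal genes only CDH3, which encodes P-cadherin, was called. The gene lies beside CDH1 (chromosome 16, 68636189 to 68722616, plus strand) and had 7, 3 and 6 reads in shNC and 24, 26 and 20 in shSTIL, 16 against 70 in all. Every shSTIL library exceeded every shNC library, and CDH3 rose by 1.75 on the log2 scale (standard error 0.27, limma adjusted p = 7.8e-05), or by 2.02 in edgeR on reads (adjusted p = 1.6e-05). Without shSTIL replicate 1 or without shSTIL replicate 2 the adjusted p was 0.011. CDH3 nevertheless stayed a gene of few reads, with a mean log2 CPM under 1 in both groups.

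CD44 (chromosome 11, 35138870 to 35232402, plus strand) was by far the most abundant basal gene. Its log2 CPM was 10.01, 9.98 and 10.05 in shNC and 9.94, 9.90 and 9.94 in shSTIL. The groups did not overlap, but the difference was small and did not pass (log2 fold change -0.09, 95% interval -0.16 to -0.02, limma adjusted p = 0.029). DESeq2 on reads called it (adjusted p = 0.0062, the lowest of its alternatives, which reached 1), and after quantile normalization its sign turned, to 0.04. TP63, the master regulator of basal cells, had 11, 14 and 10 reads in shNC and 12, 14 and 9 in shSTIL (limma adjusted p = 0.74). KRT17, a keratin of basal and injured epithelium, had 4, 1 and 0 against 0, 2 and 0, and KRT5 had a single read in shSTIL replicate 1. The basal class thus held 1 abundant gene with little difference and 1 rare gene that rose.

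Of the mesenchymal genes, VIM, FN1 and FGFR1 fell, CDH2 was not called, and of the 4 measured regulators ZEB2 rose and the other 3 were not called. VIM (chromosome 10, 17228259 to 17237593, plus strand) stood at 10.54, 10.50 and 10.53 log2 CPM in shNC and 9.82, 9.84 and 9.86 in shSTIL, on 23480 to 23924 and 15492 to 15819 reads. The libraries of each group were tight and far apart, and VIM fell to 62.4% of the control level (log2 fold change -0.68, standard error 0.031, limma adjusted p = 8.1e-10). Within each library, VIM minus KRT18 went from 1.21, 1.23 and 1.16 to 0.58, 0.55 and 0.59 on the log2 scale, and VIM stayed the most abundant of the 32 genes per transcript length, at 437 ± 6.54 CPM per kb (SD, n = 3). VIM and KRT8, filament proteins of opposite classes, fell to like levels of their controls, 62.4% and 61.5%.

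FN1, which encodes the matrix glycoprotein fibronectin (chromosome 2, 215360440 to 215436172, minus strand), had a log2 CPM of 6.46, 6.49 and 6.37 in shNC and 5.35, 5.14 and 5.27 in shSTIL. It had the largest fall among the mesenchymal genes, to 43.8% (log2 fold change -1.19, standard error 0.0547, limma adjusted p = 8.8e-10). FGFR1, the fibroblast growth factor receptor that is linked to mesenchymal bladder cancer cells, stood at 5.02, 4.91 and 4.80 in shNC and 4.45, 4.45 and 4.37 in shSTIL and fell to 71.2% (log2 fold change -0.49, standard error 0.0657, limma adjusted p = 2.5e-05). FGFR1 and FGFR3 therefore fell together, although they stand in opposite classes of the marker set. CDH2, or N-cadherin, was not called: it had 52, 49 and 45 reads in shNC and 59, 28 and 42 in shSTIL, where replicate 1 was above and replicate 2 below all shNC libraries.

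The repressors ZEB1 and ZEB2 differed from each other. ZEB2 (chromosome 2, 144364364 to 144524583, minus strand; promoter shown above) stood at 3.54, 3.57 and 3.55 log2 CPM in shNC and 4.38, 4.26 and 4.25 in shSTIL. It rose to 167% of the control level (log2 fold change 0.74, standard error 0.0743, limma adjusted p = 1.5e-06), with no overlap. ZEB1 (chromosome 10, 31318495 to 31529814, plus strand) stood at 4.37, 4.33 and 4.24 in shNC and 4.31, 4.37 and 4.17 in shSTIL and was not called (log2 fold change -0.03, 95% interval -0.19 to 0.13, limma adjusted p = 0.75). The log2 difference of ZEB2 minus ZEB1 within a library was -0.83, -0.76 and -0.69 in shNC and 0.07, -0.11 and 0.08 in shSTIL, a mean shift of 0.77. As with the other pairs, it was chosen after the values were seen and is no separate test. Per transcript length, ZEB1 remained the higher, at 3.15 ± 0.23 CPM per kb against 2.07 ± 0.10 for ZEB2 in shSTIL (SD, n = 3). This order rests on the lengths used, 6267 and 9583 bases, since the mean log2 CPM in shSTIL was 4.29 for ZEB1 and 4.30 for ZEB2. SNAI1, the zinc finger repressor Snail, stood at 1.24, 1.33 and 1.25 log2 CPM in shNC and 1.46, 1.60 and 1.13 in shSTIL, and the groups overlapped (limma adjusted p = 0.59). SNAI2, or Slug, had 1, 2 and 8 reads against 4, 5 and 9 (limma adjusted p = 0.25).

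Antisense genes overlap ELF3, KRT7, CD44, VIM, ZEB1 and ZEB2 in the annotation, and without a stated strand their reads cannot be told apart from those of these genes. KRT8 and KRT18 also have near-identical processed copies in the genome, so their values are uncertain to the extent that such reads were shared.

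Further lists of genes of the same cell states were chosen by function, with earlier results of these data known. Their shares are description and no independent support. Of 24 other luminal genes, 17 had a row, and 4 rose (23.5%, against 23.5% of all genes) and 3 fell (17.6%, against 23.6%), shares near those of all genes, with a median log2 fold change of 0.19. CYP2J2, a fatty acid epoxygenase (log2 fold change 0.71, limma adjusted p = 4.9e-04), and KLF4, a factor of terminal epithelial differentiation (0.69, limma adjusted p = 1.1e-06), had the largest rises among those whose mean log2 CPM reached 1. TRIM24, a chromatin reader and co-regulator of nuclear receptors (-0.50, limma adjusted p = 2.4e-07), and TFAP2A, an AP-2 factor of epithelia (-0.40, limma adjusted p = 4.3e-05), had the largest falls. CYP2J2 was called in only 1 of the 6 fits that left out a library, with an adjusted p of up to 0.031. The other 10 were not called.

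Of 24 other basal and squamous genes, 15 had a row, and 5 rose (33.3%, against 23.5% of all genes) and 3 fell (20%, against 23.6%), with a median of 0.11. EGFR, the epidermal growth factor receptor, stood at 9.29, 9.34 and 9.30 log2 CPM in shNC and 10.24, 10.10 and 10.15 in shSTIL and rose to 181% of the control level (log2 fold change 0.85, limma adjusted p = 5.6e-10). Within the ERBB family, EGFR thus rose while ERBB2 and ERBB3 fell. NGFR, the nerve growth factor receptor of basal urothelial cells, rose as well (log2 fold change 0.80, limma adjusted p = 9.1e-04). S100A2, a calcium-binding protein of basal cells (-1.47, limma adjusted p = 1.8e-06), and SFN, the epithelial 14-3-3 sigma protein (-0.89, limma adjusted p = 5.0e-09), fell.

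Of 28 genes of epithelial junctions and epithelial splicing, 27 had a row, and 3 rose (11.1%, against 23.5% of all genes) and 8 fell (29.6%, against 23.6%), with a median of -0.02. The tight junction gene CLDN1 rose (log2 fold change 0.66, limma adjusted p = 8.6e-10), as did SPINT1, an inhibitor of epithelial serine proteases (0.51, limma adjusted p = 0.0022). CLDN4, another claudin (-0.65, limma adjusted p = 0.0031), and TJP1, the tight junction scaffold ZO-1 (-0.36, limma adjusted p = 4.2e-06), fell. SPINT1 lost its call with any of the 6 libraries left out (adjusted p up to 0.043) and CLDN4 with 5 of the 6 (up to 0.033).

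Of 28 other mesenchymal genes and genes of the TGF-beta response, 24 had a row, and 10 rose (41.7%, against 23.5% of all genes) and 4 fell (16.7%, against 23.6%), with a median of 0.07. CALD1, the actin-binding caldesmon, stood at 7.02, 7.14 and 7.11 log2 CPM in shNC and 8.39, 8.37 and 8.37 in shSTIL and rose to 244% of the control level (log2 fold change 1.29, limma adjusted p = 8.9e-12). TGFB2, a TGF-beta ligand, stood at 3.16, 3.11 and 3.25 in shNC and 4.42, 4.36 and 4.49 in shSTIL and rose to 238% (log2 fold change 1.25, limma adjusted p = 2.0e-08). TGFBR1, the type I receptor for TGF-beta (-0.69, limma adjusted p = 8.9e-07), and TCF4, a helix-loop-helix factor that binds E-boxes (-0.55, limma adjusted p = 3.5e-04), fell. VIM, FN1 and FGFR1 thus fell in cells in which ZEB2, CALD1 and TGFB2 rose.

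**Figure D5:**
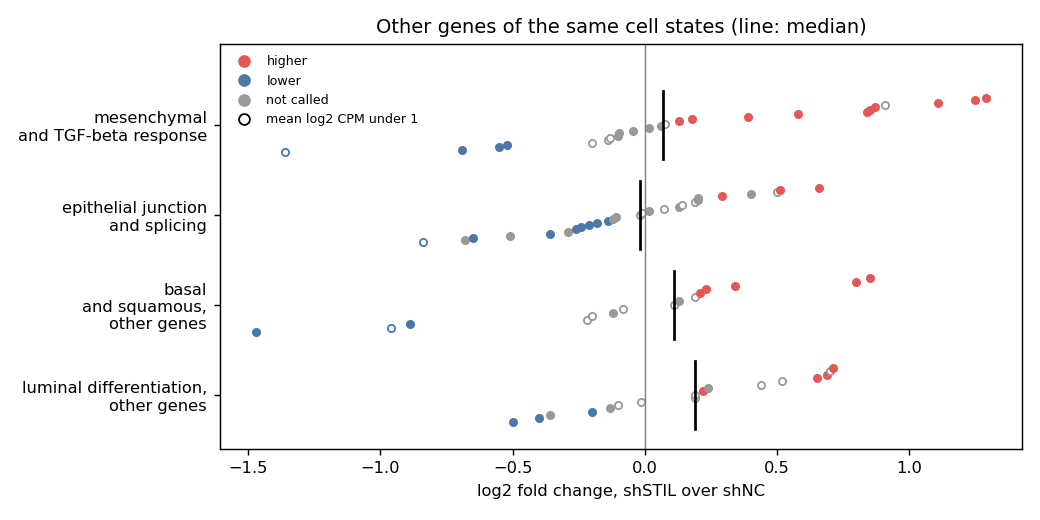
Log2 fold change (shSTIL over shNC) of the genes with a row in each of 4 further lists, with red for higher, blue for lower, grey for not called, open circles for a mean log2 CPM under 1 and a black line at the median. Each list spreads to both sides of 0, and the mesenchymal list holds 10 higher and 4 lower genes (41.7% and 16.7%, against 23.5% and 23.6% of all genes). The lists were chosen with earlier results of these data known.

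Markers of blood and endothelial cells, which a culture of a cancer line should lack, were checked beside these changes. Of 10 such genes, 7 had a row, and PTPRC, CD3E and HBB had none. Their summed level was 12.2 to 12.7 CPM in shNC and 14.9 to 17.1 CPM in shSTIL, and 1 or 2 of the 7 were at 0 in each library. Most of it was CD68, a lysosomal protein with 173 to 193 reads in shNC and 218 to 250 in shSTIL, and without it the sum was 0.94 to 1.57 and 1.94 to 2.27 CPM. CD79A, a B cell receptor subunit, was called higher, at 4, 1 and 4 reads in shNC and 22, 16 and 16 in shSTIL (log2 fold change 1.99, limma adjusted p = 8.4e-05), a call lost in 3 of the 6 fits that left out a library (adjusted p up to 0.015). The part of these genes in the changes of the 32 markers was not tested.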

How the data were processed

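Total RNA of shNC and shSTIL EJ cells was sequenced by the authors on the BGISEQ-500 instrument in 3 libraries per group. After filtering with SOAPnuke, the authors used Bowtie2 for mapping against a transcriptome and RSEM to estimate the reads of each gene, and their processing notes name hg38 as the build. The deposited values are log2 CPM of all 6 libraries, which the authors made with edgeR, and estimated counts (expected counts of RSEM, not normalized) of shNC replicate 1 and the 3 shSTIL libraries. The sample labels name the groups by shRNA, and the column headings and series design by siRNA. The labels were followed, with the paper's description of stable knockdown cells. RSEM can divide reads between paralogs, whose values are uncertain to that extent.

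Differences were fitted here with limma 3.58.1 under R 4.3.3 (lmFit, eBayes with a mean-variance trend), using all 15953 genes of the deposited log2 CPM tables, without a block, with Benjamini-Hochberg adjustment and a threshold of 0.01. The design had assumed whole counts. Reads of shNC replicates 2 and 3 were recovered from the spacing of the log2 CPM, and 86.5% to 87.7% of values per library were whole reads within 0.01. Rounded reads were run through DESeq2 1.42.0 and the quasi-likelihood test of edgeR 4.0.16 as alternatives, beside other normalizations, filters, prior counts, thresholds and leaving out each library. Single values were compared with exact two-sided permutation tests over the 20 labellings of 6 libraries. Depth, as the sum of estimated reads over these genes, was 16214800 to 16901600 per library. Levels per length used the longest coding transcript of GENCODE 29 (GRCh38), which also gave the coordinates. These levels and the summed CPM were scaled to library totals, without the normalization factor that the log2 CPM carry.

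Every marker gene with a row was described by class and role, with library values for DEGs whose mean log2 CPM reached 1 and reads for genes below it. From each further list, DEGs whose mean reached 1 were ranked by fold change, and the top 2 in each direction were named. Remarks on CD68 and CD79A and the comparisons within gene pairs were chosen after their values were seen. The members and lists were chosen with earlier results of these data known.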

Additional observations from a re-analysis of the deposited data

How the results depend on the processing

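The 20 marker genes that were called or whose mean log2 CPM reached 1 were followed across 16 alternatives. Of 317 values, 278 kept direction and side of the threshold, 34 lost a call and 3 changed sign. Another 2 gained a call (CD44 in DESeq2 and at an adjusted p under 0.05). UPK1A, outside these 20, also passed at an adjusted p under 0.05 (limma adjusted p = 0.019), where 12 marker genes were lower. ELF3, KRT7, KRT8, ERBB2, ERBB3, ZEB2, VIM and FN1 kept their calls under every alternative run. The 3 changes of sign were in genes without a call: after quantile normalization CD44 was at 0.04 and ZEB1 at 0.019, and with single libraries left out ZEB1 ranged from -0.073 to 0.027, above 0 without shSTIL replicate 3. With single libraries left out, 2 to 4 marker genes were higher and 7 to 8 lower, with 2 higher without shSTIL replicate 1 or without shSTIL replicate 2, since PPARG and CDH3 then lost their calls. DEGs among all genes numbered 4900 (without shSTIL replicate 3) to 5638, where fewer libraries were fitted. A test against a 1.2-fold change called 3317 DEGs, of which 3 higher and 7 lower were marker genes, since it asks for a larger change. PPARG, FOXA1, UPK1B and FGFR1 lost their calls there. Without the mean-variance trend PPARG, FOXA1 and UPK1B lost theirs. With the replicate number as a block (replicate block), 6898 DEGs, 4 higher and 9 lower marker genes were called, and UPK1B lost its call. Deviations of libraries with the same number correlated at -0.12, -0.055 and -0.11. With 3 libraries per group these values cannot show whether libraries with a shared number were prepared together. Depth limits the 15 genes whose mean log2 CPM was under 1, which had at most 35 reads in a library.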
